A study of Mus musculus with 8 samples.

Results

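Overexpression of the catalytically dead methyltransferase Ezh2-Y726D was accompanied by peaks of open chromatin at 4417 places where no control or Ezh2 sample had one. On chromosomes 1 to 19, the ATAC-seq peaks of 8 lists were merged wherever they had 1 bp or more in common, which gave 186387 regions. The 4417 regions examined here, called members, were chosen by their peak calls, with a call in each of the 2 Ezh2-Y726D lists and none in any GFP or Ezh2 list. They made up 2.37% of all regions and 24.0% of the 18421 regions with a peak in exactly 2 lists. Their peaks in the Ezh2-Y726D lists and the lack of peaks elsewhere are therefore a description and were not tested.

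ATAC-seq uses a transposase that cuts accessible DNA. RGCs, the neurons whose axons form the optic nerve, were taken from adult C57BL/6J mice after intravitreal injection of AAV2-GFP (control, 3 samples), AAV2-Ezh2 (3 samples) or AAV2-Ezh2-Y726D (2 samples). In every group optic nerve crush (ONC) followed the virus by 2 weeks, and live cells positive for CD90.2 (Thy1) were collected by FACS on day 3 after the crush. Each library was made from 50000 cells. CD90.2 is also carried by T cells. All groups thus shared the virus, the injury and the sort. Ezh2-Y726D carries an aspartic acid in place of a tyrosine. The labels do not say whether replicates came from separate animals, so the spread between them may be technical. In bulk samples, a changed share of a cell type and a changed accessibility per cell cannot be told apart.

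As background, Ezh2 is the catalytic subunit of Polycomb repressive complex 2 (PRC2), which methylates histone H3 at lysine 27 and keeps many developmental genes silent. A catalytically dead form can still bind partner proteins. Open regions away from gene starts often act as enhancers, and in neurons many of them lie within long genes for ion channels, receptors and adhesion proteins.

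Depth is unknown because the lists hold no read numbers. The 8 lists held 112939 to 135895 peaks, and those of Ezh2-Y726D held 124666 and 128728. An index of the background pileup read from the steps of the folds ran from 2.39 to 3.74 reads. It was 2.39 in Ezh2-Y726D replicate 1, the lowest of all lists, and 3.12 in replicate 2. Marker genes of microglia and macrophages and of T cells differed with the group. Of 20 microglia and macrophage genes, 12 to 17 had a peak at a gene end in the GFP lists, 15 to 17 in the Ezh2 lists and 4 in each Ezh2-Y726D list. Of 20 T cell genes the numbers were 17 to 19, 19 and 8 to 9. Ptprc, Tyrobp, Cx3cr1, Cd8a and Cd3g were among the genes with a peak in all 6 other lists and in neither Ezh2-Y726D list. RGC markers had a peak in 18 to 19 of 20 in every list. The part of these cell type markers in the members was not tested.

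Members at gene starts are shown first by their sequence, since these are the ones for which RefSeq promoter windows (250 bases before to 50 after a start, build GRCm38.p6) could be read. Only 44 members (0.996%) overlapped such a window. They lay at 45 genes, of which 27 were lncRNA genes and 18 protein-coding. The lines below give the bases before the start that lay inside the member, 5′ to 3′ on the strand of the gene, for 5 of the 6 strongest of these and for Slc6a13. The sixth of the strongest, at the lncRNA gene Gm46259, covered no base before the start. Capitals mark a match to a searched motif.

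Gm32727 (chr5:76006399-76006648, + strand): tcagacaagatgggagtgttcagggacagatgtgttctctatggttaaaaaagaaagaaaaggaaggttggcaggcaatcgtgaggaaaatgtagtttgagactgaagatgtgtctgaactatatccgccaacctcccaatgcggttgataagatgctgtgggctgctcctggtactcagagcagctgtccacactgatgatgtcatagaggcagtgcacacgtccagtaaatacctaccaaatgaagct
Gm40062 (chr3:62771732-62771892, + strand): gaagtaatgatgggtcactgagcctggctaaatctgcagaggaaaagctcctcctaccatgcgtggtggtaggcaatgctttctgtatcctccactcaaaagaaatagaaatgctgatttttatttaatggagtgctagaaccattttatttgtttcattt
4930533I22Rik (chr6:57484264-57484505, + strand): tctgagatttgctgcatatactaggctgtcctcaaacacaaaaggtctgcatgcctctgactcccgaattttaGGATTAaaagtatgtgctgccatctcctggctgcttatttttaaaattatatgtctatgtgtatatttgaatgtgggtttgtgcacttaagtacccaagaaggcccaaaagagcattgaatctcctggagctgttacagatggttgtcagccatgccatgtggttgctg
Gm30791 (chr9:27519694-27519943, + strand): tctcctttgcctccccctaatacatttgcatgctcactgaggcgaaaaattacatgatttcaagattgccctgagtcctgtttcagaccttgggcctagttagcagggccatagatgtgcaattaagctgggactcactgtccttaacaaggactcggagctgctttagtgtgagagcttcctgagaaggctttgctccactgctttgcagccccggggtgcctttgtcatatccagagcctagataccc
G6pc2 (chr2:69219699-69219938, + strand): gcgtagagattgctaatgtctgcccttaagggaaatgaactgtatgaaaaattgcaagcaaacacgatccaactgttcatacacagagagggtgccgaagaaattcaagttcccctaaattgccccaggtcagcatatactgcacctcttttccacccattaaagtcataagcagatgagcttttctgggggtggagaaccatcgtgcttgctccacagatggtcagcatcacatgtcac
Slc6a13 (chr6:121300038-121300240, + strand): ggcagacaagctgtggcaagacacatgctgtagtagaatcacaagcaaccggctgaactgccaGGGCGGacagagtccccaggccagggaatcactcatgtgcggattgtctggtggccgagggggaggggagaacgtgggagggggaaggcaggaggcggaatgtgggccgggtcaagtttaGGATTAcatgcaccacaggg

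The members at these starts were modest peaks. At Gm32727, a lncRNA gene, the folds over local background were 6.20 and 5.34 in Ezh2-Y726D replicates 1 and 2. At G6pc2, which encodes a glucose-6-phosphatase catalytic subunit known from pancreatic islets, they were 5.61 and 4.37. At Slc6a13, the GABA transporter GAT2, they were 3.25 and 3.64. Slc6a13 was singled out after its values were seen, since the study describes its RNA as reduced both with Ezh2 and with Ezh2-Y726D. Its member ended 48 bp before the start and held GGGCGG, the GC box, and GGATTA, which is TAATCC on the other strand, the site of Crx and Otx factors. The window before 4930533I22Rik also held GGATTA, and the other 4 sequences held none of the motifs. Of the other 5 regions at Slc6a13, 3 had a peak in all 8 lists. The strongest of these had folds of 10.0 and 10.2 in Ezh2-Y726D, compared with 8.17 to 9.66 in GFP and 8.30 to 8.69 in Ezh2. None of these 3 was called between groups by limma, with adjusted p from 0.204 to 0.762.

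The promoter windows that members overlapped were poor in CpG. Their median GC content was 47.8% with a median of 5 CpG (48 windows), compared with 61.3% and 21 in the 15237 windows under regions of all 8 lists. The 13908 windows under no region had 46.7% and 3. Motifs were searched on either strand. The GC box GGGCGG stood in 10.4% of the member windows, 8.83% of the windows under no region, 62.7% of those under regions of all 8 lists and 36.0% of all 31396 windows. The homeodomain core TAATTA stood in 16.7%, 8.21%, 2.47% and 5.27% of them, in the same order. TAATCC stood in 10.4%, 8.66%, 5.53% and 7.06%. For TGANTCA, the AP-1 site, the shares were 8.33%, 10.6%, 4.86% and 7.84%. They were 10.4%, 21.4%, 6.67% and 13.6% for TATAAA, 4.17%, 4.43%, 9.77% and 7.14% for CACGTG, and 2.08%, 0.554%, 3.09% and 1.83% for TGACGTCA. With 48 member windows, 1 window makes up 2.08%. None of the searched strings contains another, and a match is letters in a window and not a bound site.

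The members were weak peaks in both lists. Their median fold was 3.84 in Ezh2-Y726D replicate 1 and 3.88 in replicate 2, against 5.08 and 5.03 over all peaks of those lists. Within its own list, the median member stood at percentile 23.0 and 26.6. No member had a mean percentile above 75, 186 members (4.21%) lay above 50, and 46.4% lay below 25. Regions in all 8 lists had a median percentile of 69.6, and regions in exactly 2 lists one of 20.7. Members spanned 375 bp in the median (200 to 1018 bp), compared with 346 bp in regions of exactly 2 lists and 941 bp in regions of all 8.

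**Figure D1:**
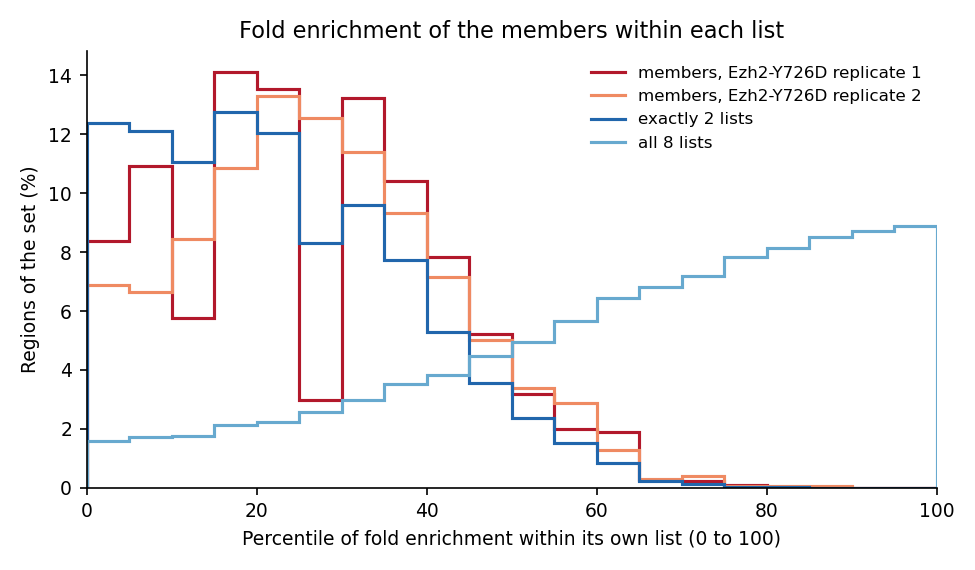
Share of regions (%) by percentile of fold within the list that holds the peak, in steps of 5, for members in each Ezh2-Y726D list and for regions with a peak in exactly 2 or in all 8 lists. Members sit mostly below percentile 50, near the regions of exactly 2 lists, whereas regions of all 8 lists lean to the right.

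The 2 lists agreed in part on where the members lay. Ezh2-Y726D replicate 1 had 10580 regions with no GFP or Ezh2 peak, of which 41.7% had a peak in replicate 2, and replicate 2 had 11348, of which 38.9% had a peak in replicate 1. In a member, the summits of the 2 lists were 58 bp apart in the median, and 66.9% lay within 100 bp. Folds of the 2 lists had a Spearman correlation of 0.414 over the members and of 0.884 over the 104340 regions with a peak in both lists. These points are regions of the same pair of libraries and not independent replicates.

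The limit of the rule passed through a dense range of weak peaks. The lowest −log10 q in a member was 1.47 in replicate 1 and 1.44 in replicate 2, whereas the lists themselves began at 1.31 to 1.38. Just outside were 4881 regions in which exactly 1 GFP or Ezh2 list joined the 2 Ezh2-Y726D lists. That other list was GFP replicate 3 in 1752 and Ezh2 replicate 3 in 1253, the lists with the highest background pileup, and each of the remaining 4 lists in 412 to 515. The other peak had a median −log10 q of 4.47, and the weaker of the 2 peaks of a member had a median of 4.01. When peaks of Ezh2-Y726D had to reach a −log10 q of 5, 1031 members (23.3%) remained. When all lists were held to the same limit, 3185 regions followed the rule, of which those 1031 were members and the rest had weaker peaks in other lists.

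Of the 5 strongest members, by the lower of their 2 percentiles, 2 lay inside a gene and 3 between genes. The first lay inside Ntng1, which encodes netrin G1, a membrane-anchored protein of axon and synapse adhesion (chr3:110094054-110094541). Its folds were 7.38 and 6.55, at percentiles 76.4 and 70.1. The second lay 98.0 kb from Zic1, a zinc finger transcription factor of neural development (chr9:91259652-91260084), with folds of 7.08 and 6.31. Its nearest GFP or Ezh2 peak was 95.3 kb away. The third was inside Camta1, a calmodulin-binding transcription activator, with folds of 6.79 and 6.31. The others lay 43.0 kb from Cxcr4, a chemokine receptor, and 243 kb from Gnpda2, with folds of 7.67 and 6.06 and of 6.49 and 6.06. In both lists these 5 stood between percentiles 64.9 and 78.7.

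Few members lay at gene ends. Of all members, 92 (2.08%) lay within 1 kb of either end of a protein-coding gene, 2153 (48.7%) lay inside a gene and 2172 (49.2%) between genes. The exact 95% binomial intervals of these shares were 1.68% to 2.55%, 47.3% to 50.2% and 47.7% to 50.7%, and cover counting error only. Among regions of exactly 2 lists, which include the members, the shares were 3.47%, 54.9% and 41.7%, and among regions of all 8 lists they were 20.2%, 45.3% and 34.5%. Regions of the same libraries are not independent draws, and the larger set includes the members, so the gap between the 2 sets was not tested. The median distance to an annotated start was 45.9 kb for members, 33.2 kb for regions of exactly 2 lists and 26.7 kb for all regions. With gene ends drawn at 3 kb, 5.89% of the members lay at one.

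**Figure D2:**
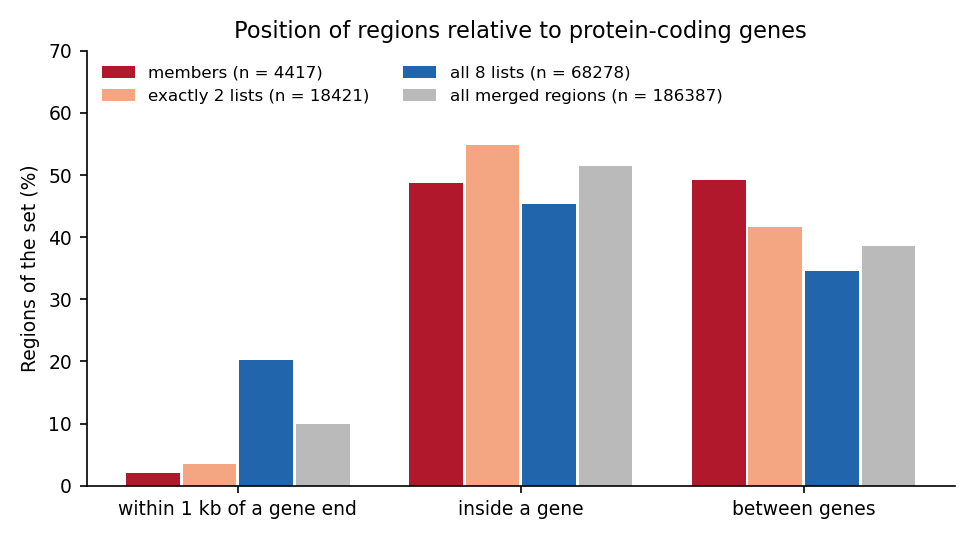
Share of regions (%) within 1 kb of a gene end, inside a gene or between protein-coding genes, for members, regions of exactly 2 lists, regions of all 8 lists and all merged regions. The bar of members is the shortest at gene ends (2.08%) and the tallest between genes (49.2%).

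The nearest GFP or Ezh2 peak was 4.29 kb from a member in the median. It lay within 500 bp in 457 members (10.3%), and 1173 members (26.6%) had none within 10 kb. Members were found on all 19 autosomes, where they made up 1.60% (chromosome 11) to 2.79% (chromosome 14) of the regions.

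The strongest members at gene ends belonged to genes of many kinds. They lay at Zfp354a, Krtap7-1, Rapsn, Sdr42e1, Vmn2r82, Gm33989, Trpm8, Cers6, Psg22 and Atad1. At Zfp354a, a zinc finger gene, the folds were 5.31 and 4.85 in replicates 1 and 2. At Rapsn, which encodes rapsyn, the protein that clusters acetylcholine receptors at the neuromuscular junction, they were 5.23 and 4.51 (chr2:91046676-91047163). At Trpm8, the cold-sensing ion channel, they were 4.17 and 4.46. At Cers6, a ceramide synthase, they were 5.90 and 4.12. All 10 lay between percentiles 32.5 and 61.4 of their lists.

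By gene, members were spread thinly over long genes. Of 20661 protein-coding genes, 1598 (7.73%) had a member within 1 kb or inside, 382 had 2 or more and 35 had 5 or more. Genes with a member had a median length of 129 kb, compared with 17.5 kb for all genes. Part of this follows from length alone, since a long gene holds more regions of any kind. The share of members among the regions of a gene also rose with length, from 1.07% in genes up to 50 kb to 1.64%, 1.88% and 2.33% in the next classes and 3.51% in genes over 500 kb. Per Mb of gene, members rose from 1.35 to 2.85 between the shortest and longest class while all regions fell from 126 to 81.2.

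The genes with the most members were Thsd4 and Prkg1 with 11 each, Magi2 with 9, Nrg3, Lsamp and Cntnap2 with 8, Fhit, Nrxn3 and Macrod2 with 7, and Kcnh1 with 6. Prkg1 is a cGMP-dependent kinase, Magi2 a synaptic scaffold, Nrg3 a ligand of the ErbB4 receptor, and Lsamp, Cntnap2 and Nrxn3 are adhesion proteins of neurons. Fhit is a diadenosine triphosphatase at a fragile site and Macrod2 an ADP-ribosylhydrolase. All but Thsd4 and Kcnh1 are longer than 1 Mb. Thsd4, an extracellular matrix protein of microfibrils, spans 555 kb and held 11 members among 84 regions (13.1%). Kcnh1, a voltage-gated potassium channel of the ether-a-go-go family, spans 321 kb and held 6 among 32 (18.8%). In Lsamp and Nrxn3 the share was 3.88% and 3.54%.

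Thsd4 gave the 500 kb window with the most members, on chromosome 9 from 60000001 to 60500000, with 10 among 72 regions. After it, 7 windows tied at 6 members. Among them, the window from 74000001 on the same chromosome, over Unc13c and Wdr72, held 6 among 33 regions, and that over Pdzrn3 on chromosome 6 held 6 among 35, both a larger share of regions than in the Thsd4 window. Thsd4 members spanned 506 kb of the gene. Their folds ran from 2.95 to 5.61 in Ezh2-Y726D replicate 1 and from 3.08 to 5.82 in replicate 2. The strongest by its lower percentile lay at chr9:60368412-60368804, with folds of 4.98 and 5.09. The Ezh2-Y726D lists had a peak in 64 and 62 Thsd4 regions, the GFP lists in 40, 42 and 55, and the Ezh2 lists in 32, 31 and 39. Both Ezh2-Y726D lists lay above the other 6, but the rule counts every member in both of them and in no other list. Without the members, both would fall below the 55 of GFP replicate 3 and stay above the remaining lists. The gene was also chosen by its members, so the gap was not tested. All 8 lists shared 18 Thsd4 regions. In these, which the rule did not use, limma called 2 lower against GFP and 3 lower against Ezh2, and the others did not pass.

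**Figure D3:**
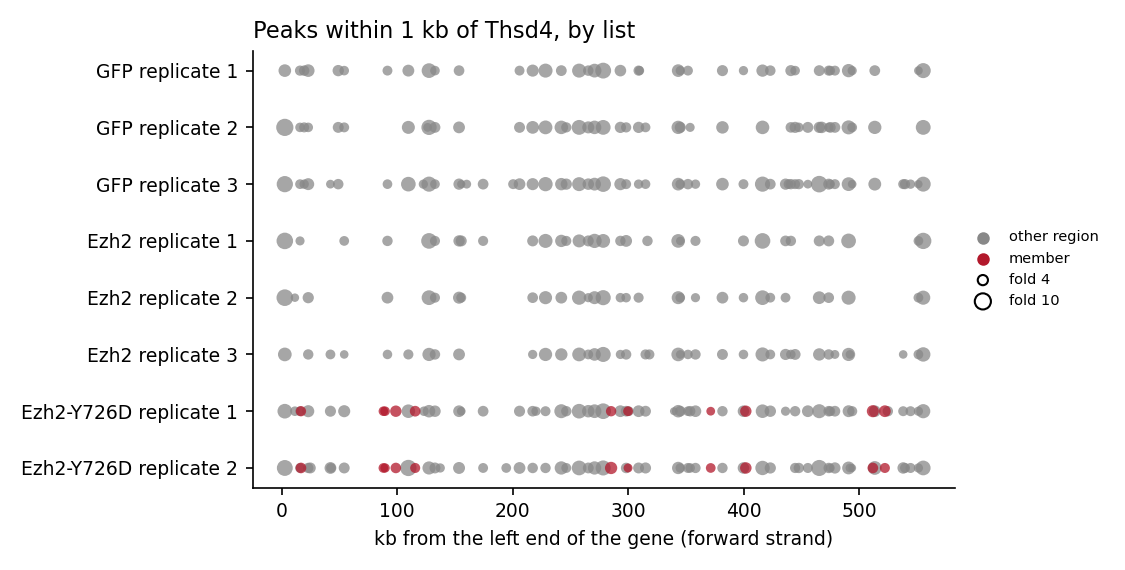
Peaks at Thsd4 in the 8 lists by distance in kb from the left end of the gene (horizontal axis), with the area of a point set by its fold and members in red. The 11 members are scattered over 506 kb of the gene in both Ezh2-Y726D lists.

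Lists of neuronal genes were compared by the share of members among their regions, beside 1.90% over all protein-coding genes. Of all protein-coding genes 7.73% had a member, but 51.7% of those of 200 to 500 kb and 84.7% of those over 500 kb. Voltage-gated ion channel genes had a member in 19 of 30, and 43 of their 927 regions (4.64%) were members. Kcnh1 had 6, and Kcnip4, a modulator of Kv4 channels, and Cacna2d3, a calcium channel subunit, had 5 each. Cacna1c and Cacna1d, the pores of L-type calcium channels, had 4 each. One member of Cacna2d3 had the highest fold of all members in replicate 2, 9.22.

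Neurotransmitter receptor genes had a member in 16 of 30, and 40 of 870 regions (4.60%) were members. Grm8, a metabotropic glutamate receptor, and Grik2, a kainate receptor, had 5 each, and Gabrb1, a subunit of the GABA-A receptor, and Grik4, another kainate receptor, had 4 each. In Grik2 the 5 were among only 27 regions, and their folds ran from 3.25 to 5.46 and from 3.15 to 5.09. Neuronal adhesion genes had a member in 22 of 30, and 70 of 1742 regions (4.02%) were members, with 8 in Cntnap2, 8 in Lsamp, 7 in Nrxn3 and 5 in Nlgn1. Axon guidance genes had a member in 20 of 30, and 37 of 1105 regions (3.35%) were members. Robo2, a receptor of the Slit ligands, had 6, Robo1 and the semaphorin receptor gene Plxna4 had 4 each, and the netrin receptor gene Unc5d had 3. The median gene of these 4 lists was 279 to 773 kb long, and genes of 200 to 500 kb and over 500 kb had 2.33% and 3.51%, so the length of the genes moved with the result. The shares of genes with a member were 63.3%, 53.3%, 73.3% and 66.7% for channels, receptors, adhesion and axon guidance. All 4 lay between those of genes of 200 to 500 kb (51.7%) and over 500 kb (84.7%). Per Mb of gene, members were 1.95 times as dense in channel genes as in all genes, 1.60 times in receptor genes, 1.32 times in adhesion genes and 1.42 times in axon guidance genes. The densities were 4.25, 3.48, 2.87 and 3.09 members per Mb, in the same order. All genes of 200 to 500 kb had 2.69 per Mb and those over 500 kb had 2.85, so adhesion genes were near the longest class. Over 13 alternatives the ratio to all genes stayed above 1 in channel genes (1.19 to 2.20) and receptor genes (1.37 to 2.11). It fell to 0.936 in adhesion genes with lists of equal length and to 0.844 in axon guidance genes when Ezh2-Y726D peaks had to reach a −log10 q of 5. The length classes were not recomputed in these alternatives, so a ratio above 1 does not allow for gene length.

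Of 20 RGC genes, 4 (20%) had a member, compared with 7.73% of all protein-coding genes, and 5 of their 124 regions (4.03%) were members, compared with 1.90%. Per Mb of gene, members were 2.26 times as dense as in all genes, with 1.05 to 5.97 times over 13 alternatives, on the basis of only 5 members. They were Ebf1 and Ebf3, transcription factors, Gap43, a growth cone protein that rises in regenerating axons, and Rbpms2, an RNA-binding protein of RGCs. The Gap43 member had folds of 4.62 and 4.37, and that of Rbpms2 4.00 and 4.03. Markers of other cells held 0 to 3 members each. Amacrine genes had a member in Chat and Gad1 (2 of 147 regions), bipolar genes in Prkca and Grik1 (3 of 239), Müller glia genes in Dapl1 (1 of 80) and T cell genes in Themis (1 of 153). Rod genes (0 of 96 regions) and microglia and macrophage genes (0 of 81) had none, counts that allow shares of up to 3.13% and 3.70%, above 1.90%. These limits are 3 counts over the number of regions and treat regions as independent draws, which they are not. The T cell genes had 1.15 members per Mb (1 member), beside 2.18 over all protein-coding genes. Regions found in all 3 Ezh2 lists and no other numbered 15 in T cell genes, or 17.3 per Mb, beside 2.12 over all protein-coding genes. The 2 kinds of region follow rules of 2 and of 3 lists.

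At genes of the Polycomb system no member was found, in too few regions to set this apart from the 1.90% over all genes. Among 30 developmental transcription factor genes under Polycomb, 0 of 72 regions were members, and among 10 PRC2 genes 0 of 82 were. By the same limit, with regions taken as independent draws, this allows up to 4.17% and 3.66%, above the share over all genes. The factor genes are short, with a median of 5.93 kb, and few regions lay in them. At Ezh2 itself, 0 of 13 regions were members, and 3 were regions found in all 3 Ezh2 lists and no other. Of 10 genes whose RNA the study describes as reduced with Ezh2, 3 held members, namely Epha4 (2), Epha6 (1) and Slc6a13 (1). These were 4 of their 170 regions (2.35%), near the 1.90% over all genes, and per Mb members were 1.01 times as dense as in all genes (0 to 1.54 over 13 alternatives). Epha4 and Epha6 are ephrin receptors of axon guidance. The Epha4 members had folds of 5.90 and 3.72 and of 3.69 and 3.39. Of 10 described as increased, 1 held a member, Thbs1, which encodes thrombospondin 1, with folds of 3.10 and 3.13. This was 1 of 24 regions, and 10% of the genes beside 7.73% of all genes. The study chose both lists on RNA from the same design, so they are not independent of it.

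**Figure D4:**
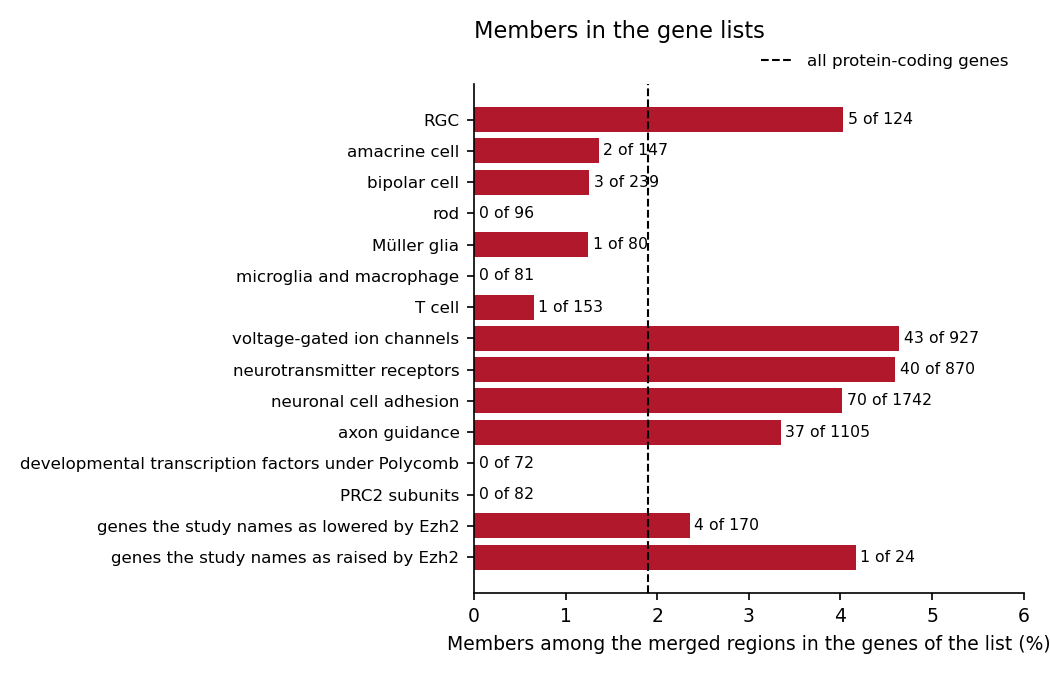
Members as a share (%) of the merged regions in the genes of each list, with the numbers of members and regions beside each bar and the share over all protein-coding genes (1.90%) as a dashed line. The 4 lists of neuronal genes lie at 3.35% to 4.64%, RGC genes at 4.03% (5 of 124) and the genes raised by Ezh2 at 4.17% (1 of 24). Rod, microglia, Polycomb and PRC2 genes lie at 0, which allows up to 3.13% to 4.17% with regions taken as independent draws.

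To ask whether accessible chromatin around the members changed too, regions with a peak in all 8 lists were compared between groups. The rule did not use the peaks of these 68278 shared regions, though members were called in the same lists. Of the shared regions, 2947 lay within 10 kb of a member. Folds were ranked within each list and converted to normal scores, and limma compared the groups over all shared regions at an adjusted p under 0.05. Against GFP, 97 neighbours (3.29%) were higher in Ezh2-Y726D, beside 3.58% of all shared regions, and 209 (7.09%) were lower, beside 4.7%. Against Ezh2, 197 (6.68%) were higher, beside 7.01%, and 302 (10.2%) were lower, beside 7.09%. So near the members the share called higher was close to the share over all shared regions, and the share called lower was above it. Both comparisons use the same Ezh2-Y726D samples.

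The larger share of lower neighbours lay within 5 kb. Against GFP, 6.45% were lower up to 1 kb from a member, 12.1% at 1 to 2 kb and 10.4% at 2 to 5 kb, but 4.63% at 5 to 10 kb and 4.41% at 10 to 50 kb. Against Ezh2 the shares were 10.6%, 17.1% and 14.0%, then 7.07% and 7.06%. The median difference of all neighbours within 5 kb was -0.13 against GFP and -0.16 against Ezh2, on the normal-score scale, beside -0.01 and -0.02 over all shared regions. Only 1200 members (27.2%) had a shared region within 5 kb. Of these, 223 (18.6%) lay within 5 kb of one called lower in either comparison and 98 (8.17%) within 5 kb of one called higher. The deposited fold is taken against the local background, so folds of regions a few kb apart are not independent measurements. The calls that define members came from the same caller and lists, so neighbours a few kb away are not independent of the rule either. The part of this in the result was not tested.

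**Figure D5:**
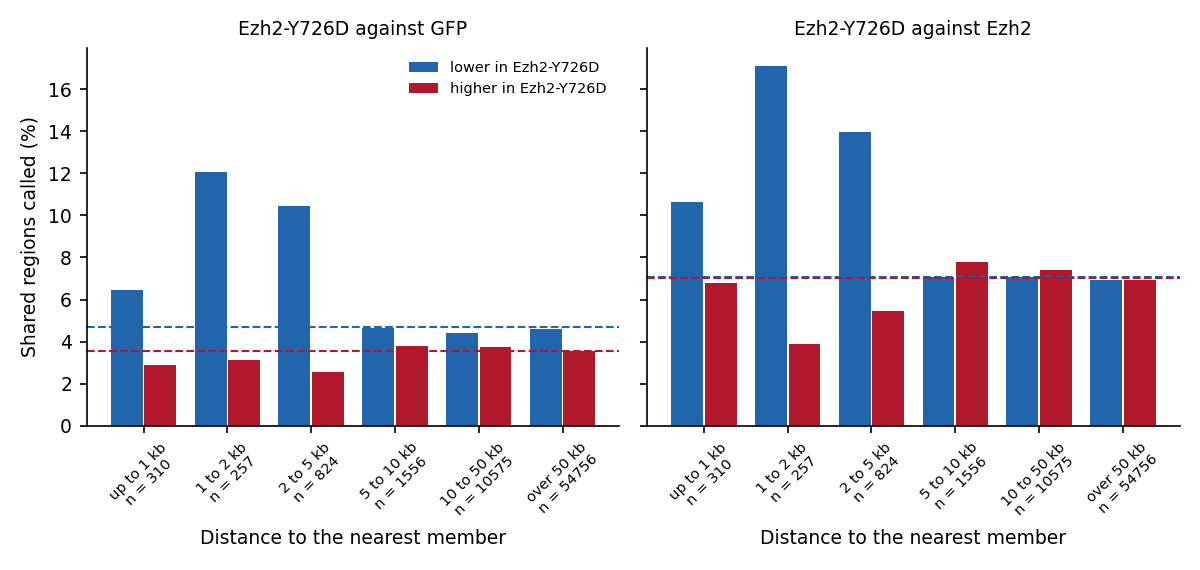
Share (%) of shared regions called lower (blue) or higher (red) in Ezh2-Y726D by distance to the nearest member, against GFP (left) and Ezh2 (right). Dashed lines give the share over all 68278 shared regions, and the blue bars exceed theirs up to 5 kb and meet it from 5 kb on.

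Single neighbours moved far in both directions. The largest decrease against GFP lay inside Rapsn (chr2:91042373-91043400), 3.28 kb from the member at the end of that gene. It stood at percentiles 17.7 and 24.2 with Ezh2-Y726D, at 79.7, 86.1 and 95.6 with GFP and at 92.1, 89.6 and 93.3 with Ezh2. Both Ezh2-Y726D samples lay below all others, and the difference from GFP was -2.29 ± 0.26 (SE, limma adjusted p = 0.0024). A peak found only with Ezh2-Y726D, 0.947 kb outside Rapsn, thus lay 3.28 kb from a shared peak inside the gene that ranked lower with Ezh2-Y726D. The region nearest to Lclat1, a lysocardiolipin acyltransferase gene, was lower in both comparisons. It stood at percentiles 30.3 and 24.5 with Ezh2-Y726D, at 81.7, 87.4 and 90.6 with GFP and at 98.1, 96.8 and 97.1 with Ezh2. The difference was -1.99 ± 0.19 against GFP and -2.89 ± 0.19 against Ezh2 (limma adjusted p = 0.00203 and 0.000215). The other largest decreases lay near Gdi2 against GFP (-2.03 ± 0.23) and, against Ezh2, in Rftn2 (-3.03 ± 0.35) and 147 kb from Fbxw7 (-2.72 ± 0.28). Rftn2 encodes a lipid raft linker protein and Fbxw7 a ubiquitin ligase subunit.

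The largest increase against Ezh2 lay inside Osbpl3, which encodes an oxysterol-binding protein, 1.67 kb from a member. Its percentiles were 4.30, 11.3 and 4.03 in Ezh2, 73.0 and 78.3 in Ezh2-Y726D and 48.1, 61.4 and 59.9 in GFP. Ezh2-Y726D exceeded Ezh2 by 2.30 ± 0.22 (limma adjusted p = 0.000594), with GFP between the 2 groups. P2rx7, the ATP-gated ion channel, held a region at percentiles 79.8 and 50.4 with Ezh2-Y726D, 2.29, 0.676 and 19.4 with Ezh2 and 30.7, 7.79 and 7.74 with GFP. Its difference from Ezh2 was 2.22 ± 0.44 (limma adjusted p = 0.00971), and ranking by −log10 p raised that adjusted p to 0.273. A region 583 kb from Zwint was 2.24 ± 0.39 higher than in Ezh2. Against GFP the largest increases were in Nipal2 (1.87 ± 0.35), Ythdc2 (1.84 ± 0.44, limma adjusted p = 0.0323, not called in 7 of 12 alternatives) and Fam107b (1.69 ± 0.28). In Fam107b the percentiles were 83.7 and 68.9 with Ezh2-Y726D, 30.3, 18.8 and 13.9 with GFP and 24.1, 9.30 and 10.5 with Ezh2, so Ezh2-Y726D stood above both other groups. In Nipal2 Ezh2 replicate 3 (84.9) lay within the range of Ezh2-Y726D (82.6 and 85.1).

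These numbers of calls rested on few samples. Against GFP, calls higher and lower fell to 7 and 43 without Ezh2-Y726D replicate 1, to 21 and 81 without replicate 2, to 56 and 125 without GFP replicate 1 and to 62 and 124 without GFP replicate 2. Against Ezh2 they fell to 52 and 127 without Ezh2-Y726D replicate 1 and to 61 and 163 without replicate 2. In all 14 alternatives the share of lower neighbours stayed above that over all shared regions in both comparisons, whereas the share of higher neighbours was above it in 3 and in 1. Within the genes themselves, the 990 shared regions of genes with 5 or more members were called higher in 4.85% and lower in 3.74% against GFP, beside 2.64% and 4.25% in all protein-coding genes. Against Ezh2 these shares were 7.07% and 6.67%, beside 5.42% and 6.47%. Over all shared regions the shares were 3.58% and 4.7% against GFP and 7.01% and 7.09% against Ezh2. The genes with 5 or more members were picked by their members and had a median length of 1098 kb, beside 17.5 kb in all genes. Length was not matched, and its part in these shares was not tested.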

How the data were processed

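ATAC-seq peak lists of 8 samples were analysed, 1 list per sample, called separately by the authors. Per the submitters' processing notes, cutadapt, Bowtie2, SAMtools, Picard and MACS2 were used with build GRCm38, with versions and the peak threshold not given in the sources used here. The deposited fold is the ratio of the summit pileup to the local background. The deposited −log10 p-value came from the peak caller within each list, as did the deposited −log10 q-value. The deposited score was not used as a result. Sequencing depth is unknown, so peaks were compared only by presence or by rank within their list.

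Groups came from the sample titles. Peaks on chromosomes 1 to 19 sharing at least 1 bp were merged, and members followed the stated rule. The members, the gene lists and the comparisons were chosen with earlier results of these data known. Genes, promoter windows and sequences came from RefSeq (GRCm38.p6), without exons. All genes of the lists matched, and regions outside genes carry the name of the closest one. Shared regions were compared with limma 3.58.1 in R 4.3.3 (lmFit, eBayes, 3 groups, 8 samples, Benjamini-Hochberg adjustment over 68278 regions). Intervals and limma were tested on simulated data. Python 3.11.15 and pandas 2.3.3 were used otherwise. Named were Ezh2, the 5 strongest members, the 10 strongest at gene ends, the 10 genes with the most members, up to 4 genes per list, the 3 windows of 500 kb with the most members (ties by share of regions), up to 6 members at promoters and 3 neighbours per comparison and direction with the largest difference. Alternatives changed the q threshold, list length, overlap, distances, ranking, the number of lists, the replicate block and the samples.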

Additional observations from a re-analysis of the deposited data

How the results depend on the processing

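Requiring a −log10 q of 5 of Ezh2-Y726D peaks left 1031 members, and requiring it of all lists gave 3185. Lists of equal length gave 4008, of which 2297 were members. Leaving out 1 list gave 4835 to 11552, with both highest values (11552 and 10839) from the lists of Ezh2-Y726D. Gene ends at 3 kb moved the shares at gene ends, inside and between genes to 5.89%, 46.5% and 47.7%. The shares inside and between became 51.1% and 46.5% at −log10 q of 5 and 50.4% and 47.2% with equal lists, and 51.0% lay between genes with no GFP or Ezh2 peak within 500 bp. Leaving out 1 list gave 2.07% to 2.80%, 48.9% to 52.7% and 44.5% to 49.0%. Protein-coding genes with a member ranged from 1720 to 3332 without 1 list, the lists of Ezh2-Y726D giving 3332 and 3023. Axon guidance genes with a member fell to 13 with all lists at −log10 q of 5. Other gene counts for the 4 neuronal lists stayed within 1.5 times there, without 1 list and with no margin. They were not recounted in the other settings. With only Ezh2-Y726D peaks held to 5, channel, receptor, adhesion and axon guidance genes kept 11, 12, 15 and 5 members, beside 43, 40, 70 and 37.

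Neighbours higher and lower numbered 38 and 137 (GFP) and 76 and 192 (Ezh2) within 5 kb, and 495 and 675 and 980 and 1049 within 50 kb, where fewer or more regions count. Regions in at least 5 lists gave 62 higher against GFP, and the cause was not tested. Leaving out 1 list gave 7 to 95 and 43 to 196 against GFP and 52 to 194 and 127 to 297 against Ezh2. Rank scores of shared regions did not deviate together by replicate number (correlations of deviations -0.02 to 0.05). Such ranks do not carry the length of a list. In each group the list numbered 3 in its peak names held the most peaks, with 133674 (GFP), 135895 (Ezh2) and 128728 (Ezh2-Y726D). What lies behind this was not tested. With the replicate block by title numbers there were 90 and 173 and 168 and 260. The replicate block by the numbers in the peak names, chosen after seeing the data, gave 48 and 127 and 131 and 219. Of the named neighbours, Rapsn, Gdi2, Lclat1, Rftn2, Fbxw7 and Osbpl3 passed in all 12 alternatives. Ythdc2 passed in 5, Nipal2, Fam107b and P2rx7 in 10, and Zwint in 11, and none changed direction. Unknown depth limits what a missing peak shows, since most members were weak.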
